A study of Homo sapiens with 33 samples.

Results

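The neuronal differentiation genes examined here are 41 genes chosen by symbol, of 58735 genes in the count table, and each was found. They fall into 9 roles: 7 proneural and neuronal basic helix-loop-helix (bHLH) factors, 10 homeodomain and other specifying factors, 3 zinc finger factors of early neurons, 3 neuronal RNA-binding proteins, 9 genes of the cytoskeleton and of neurite growth, 3 genes of synaptic vesicle release, 3 axonal adhesion genes, 2 neurotrophin receptors and 1 phosphatase inhibitor. Bulk RNA-seq had been made from H9-DDdCas9VP192-FOXL2 clone 24, 1 clone derived from H9, a human embryonic stem cell line. In every group the cells carried a destabilised, catalytically inactive Cas9 fused to the VP192 activator, together with guides to the FOXL2 promoter, and went through gonadal differentiation in intermediate mesoderm medium. The 11 groups were day 4 and, every other day from day 6 to day 14, CTRL and IND cells. IND cells received doxycycline and trimethoprim, which turn the activator on, from day 4, and CTRL cells did not. The effect of both compounds and that of FOXL2 cannot be told apart, since no group had the compounds without activation. Each group held 3 technical replicates from 1 biological replicate, so that p-values measure only the spread between the libraries of 1 differentiation.

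When a progenitor becomes a neuron, proneural bHLH factors such as NEUROG1 and NEUROG2 first commit it to the neuronal fate. Downstream bHLH, homeodomain and zinc finger factors then fix the subtype, and genes of the neurofilaments, the growth cone, the axon surface and the synapse follow. POU4F1, ISL1, TLX3, PRDM12 and PHOX2A are known for their roles in the sensory and autonomic neurons of the peripheral ganglia. The differentiation protocol aims at gonadal cells and not at neurons.

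The libraries held 23940837 to 51912815 counts, with a median of 41420455. Levels are given in CPM, counts scaled to the library total after its adjustment by a TMM factor. The targeted gene FOXL2 lay at 147.5 to 577 CPM after induction and did not exceed 0.388 CPM in any other library. Its mean in IND cells fell with time and was 528, 275, 261, 224 and 171 CPM from day 6 to day 14. The part of this fall in differences between days was not tested. IND replicate 2 of day 10 stood apart. It had the lowest total, and its correlation with the other replicates of its group was 0.923, against at least 0.9706 for the others. Of the 41 genes, 26 had their lowest value of the day 10 IND group in this library and 12 their highest. Some had no count in it, such as PRPH, with 129, 0 and 97 counts in replicates 1 to 3. The day 10 and interaction counts of calls over the 41 genes are given with and without this library. Other day 10 IND values, such as levels, sums, overlaps and counts by role or list, include it. The libraries were non-directional, and 13 of the 41 genes share exon bases with another annotated gene, most of all PRPH (56.2%), NEFM (38.9%), TUBB3 (35.8%), POU4F1 (27.7%), ISL2 (17.5%), TLX3 (16.3%) and NEFL (11.3%), whose counts are uncertain to that extent. A gene was taken to be at the floor in a group when each library held 3 counts or fewer, a limit that covers counting error only.

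Promoters are shown for 1 gene of each of the 3 factor classes and for 1 growth gene, chosen by the smallest adjusted p among the genes that were lower in IND cells and have a promoter in the table used. They run from 250 bases before to 50 bases after the start of transcription in RefSeq (GRCh38.p14), 5′ to 3′ on the strand of the gene, with motif matches in capitals. NHLH2 lies at chr1:115841077-115841376 on the minus strand, TLX3 at chr5:171308998-171309297, MYT1 at chr20:64164202-64164501 and GAP43 at chr3:115623260-115623559, these 3 on the plus strand. The capitals mark E-boxes (CANNTG, the element that bHLH factors bind) in NHLH2 and GAP43 and the forkhead core TGTTTA, read here on the other strand, in MYT1.
NHLH2: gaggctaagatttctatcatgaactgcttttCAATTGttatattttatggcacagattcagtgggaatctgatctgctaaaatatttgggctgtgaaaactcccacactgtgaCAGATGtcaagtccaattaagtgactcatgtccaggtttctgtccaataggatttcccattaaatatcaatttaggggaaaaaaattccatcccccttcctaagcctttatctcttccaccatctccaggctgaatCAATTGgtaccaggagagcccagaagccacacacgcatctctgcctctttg
TLX3: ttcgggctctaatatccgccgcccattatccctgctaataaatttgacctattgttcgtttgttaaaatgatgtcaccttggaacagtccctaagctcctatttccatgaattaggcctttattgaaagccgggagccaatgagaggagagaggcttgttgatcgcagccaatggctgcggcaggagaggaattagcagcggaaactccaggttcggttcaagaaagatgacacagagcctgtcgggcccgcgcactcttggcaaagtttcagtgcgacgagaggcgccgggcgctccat
MYT1: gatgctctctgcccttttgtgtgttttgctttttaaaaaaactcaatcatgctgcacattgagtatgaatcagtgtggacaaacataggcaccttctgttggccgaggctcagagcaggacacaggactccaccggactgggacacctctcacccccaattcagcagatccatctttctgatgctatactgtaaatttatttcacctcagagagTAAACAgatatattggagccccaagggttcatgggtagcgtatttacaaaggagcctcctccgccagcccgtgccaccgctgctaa
GAP43: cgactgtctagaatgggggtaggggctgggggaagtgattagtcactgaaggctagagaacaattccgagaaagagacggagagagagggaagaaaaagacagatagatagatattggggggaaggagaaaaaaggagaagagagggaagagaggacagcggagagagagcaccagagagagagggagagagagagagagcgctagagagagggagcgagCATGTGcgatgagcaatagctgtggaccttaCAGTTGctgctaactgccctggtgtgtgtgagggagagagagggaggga
The window of TLX3 held none of the letters searched for. Other starts of these genes were not examined.

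RefSeq promoters matched 34 of the 41 genes. An E-box on either strand was present in 21 of the 34 (61.8%), against 68.7% of all 35097 promoters of the table. Of the E-box variants, CAGCTG, which is part of the same count, was present in 9 (26.5%, against 17.9% of all), CAGATG in 4 (11.8%, against 14.7%) and CATATG in 2 (5.88%, against 3.04%). The forkhead core TGTTTA was present in 5, namely those of NHLH1, MYT1L, NTRK2, NEUROD4 and MYT1 (14.7%, against 12.3%), and ATTAAT, a POU4-like sequence, in 1, that of DCX (2.94%, against 4.78%). These matches are letters in a window and do not show binding.

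In CTRL cells the neuronal genes rose through the differentiation. Their summed level was 101.6 to 140.8 CPM in the day 4 libraries, 186 to 228.3 at day 6, 293.5 to 384.4 at day 8, 621.4 to 838 at day 10, 854.7 to 1509 at day 12 and 1324 to 2202 at day 14. Among day 4 and the CTRL groups, 40 of the 41 genes had their highest mean at day 14. The exception was CNTN6, an axonal adhesion gene of the contactin family, with 20.9 ± 2.7 CPM (SD, n = 3) at day 10, 20.8 ± 2.48 at day 12 and 20.7 ± 8.67 at day 14, values that overlap. As bulk RNA was measured, fewer cells of a type and less RNA per cell cannot be told apart, here or in any comparison that follows.

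Against day 4, the quasi-likelihood test of edgeR, adjusted over all genes by the Benjamini-Hochberg method (threshold 0.05, 6 libraries a comparison), called 10 of the 32 genes tested higher and 2 lower in day 6 CTRL cells, where 21.6% of all genes were called. At day 8, 25 of 36 were higher and 2 lower (37.1% of all genes called). At day 10, 35 of 39 were higher (45.1% of all genes called), at day 12 38 of 40 (48.1%) and at day 14 40 of 40 (47.6%, with 24.6% higher). In 35 of the 39 genes of day 10 the CTRL and day 4 libraries did not overlap, against 57.6% of all genes. The median log2 fold change of the genes tested went from 0.64 at day 6 to 1.87, 3.41, 3.91 and 4.53 at the later days, with ISL2, which had no count at day 4, set to its bound. These medians cover the 32, 36, 39, 40 and 40 genes tested. The 6 genes at the floor at day 4 could pass the filter on low counts only through CTRL cells. Their direction was thus fixed in advance, and their entry raises the later medians and counts. The 5 comparisons share the day 4 libraries.

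**Figure D1:**
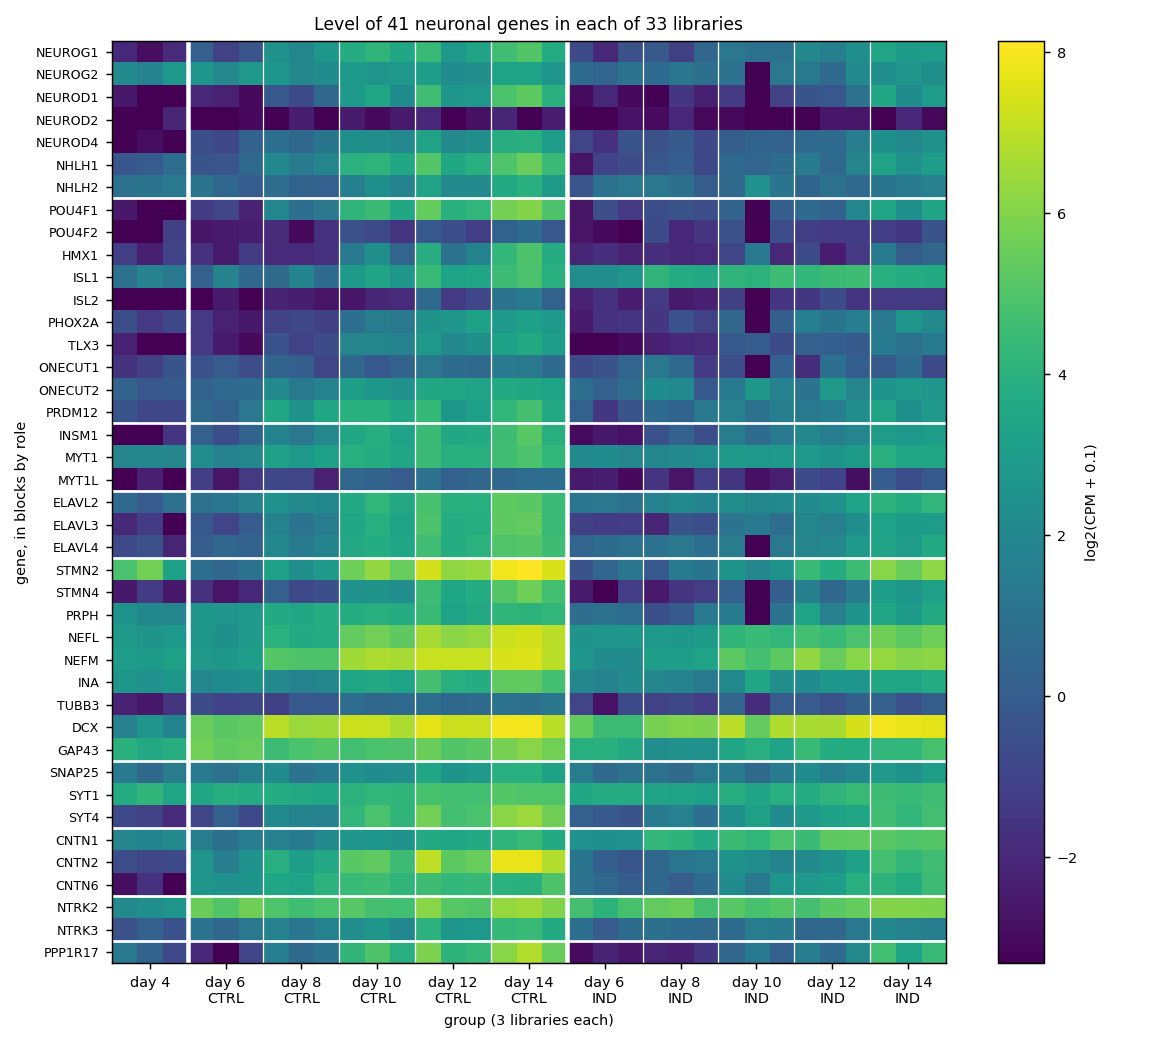
Level of the 41 neuronal genes in each of the 33 libraries, as log2(CPM + 0.1), with 3 columns for each group and the genes in blocks by role. Of day 4 and the CTRL groups, day 14 has the highest mean in 40 of 41 genes, and most genes are darker in the IND groups on the right, with CNTN1 and, until day 12, ISL1 brighter.

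The rise was not uniform at its start. GAP43, a growth cone protein, was among the first to rise, with a log2 fold change of 1.73 at day 6 (edgeR, adjusted p = 2.09e-05), together with DCX, a microtubule-associated protein of migrating young neurons (3.27, edgeR, adjusted p = 5.68e-06), and NTRK2, the receptor of brain-derived neurotrophic factor (3.02, edgeR, adjusted p = 3.7e-06). NEUROG2 did not pass the test before day 14, when its log2 fold change was 0.85 (edgeR, adjusted p = 0.0398).

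STMN2, a stathmin of growing axons, followed a different course. Its level at day 4 was 29.2, 51.2 and 9.11 CPM in the 3 libraries, and 1.66, 1.38 and 1.95 CPM in those of day 6 CTRL cells. The day 6 values lay below each day 4 value, and the log2 fold change was -4.17 (edgeR, adjusted p = 0.00139). It then rose again, to 237.7, 283 and 176.5 CPM in the day 14 CTRL libraries, all above the day 4 values. PPP1R17, a phosphatase inhibitor known from Purkinje cells, was the other gene called lower at day 6 (log2 fold change -2.71, edgeR, adjusted p = 0.0473), and INA, the neurofilament protein alpha-internexin, was called lower together with STMN2 at day 8 (-0.75, edgeR, adjusted p = 0.0157).

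In IND cells many of the neuronal genes were lower than in CTRL cells of the same day. At day 6, 6 of the 31 genes tested were lower and 1 was higher (edgeR), and 3.66% of all genes were called, 2.37% lower and 1.29% higher. At day 8, 21 of 37 were lower and 2 higher, with 14.2% of all genes called, 6.67% lower and 7.49% higher. At day 10 16 of 39 were lower and 1 higher (2.03% of all called, 1.18% lower and 0.856% higher), at day 12 24 of 40 were lower and 1 higher (5.42% called, 3.04% lower and 2.38% higher) and at day 14 28 of 40 were lower and 1 higher (8.43% called, 5.22% lower and 3.21% higher). The median log2 fold change of the genes tested was -0.40, -0.99, -1.73, -1.69 and -1.40 from day 6 to day 14 in order of the days, while that of all genes lay between -0.01 and 0.02. Without the filter on low counts, the median over all 41 genes was -0.45, -0.82, -1.76, -1.70 and -1.39. The day 10 count depended on single libraries. Without IND replicate 2, 30 genes were lower and 2 higher, the 16 among them, and without another library of that day 0 to 5 genes were called by edgeR. The 0 was without CTRL replicate 1, where 26 of 40 genes had an unadjusted p under 0.05. At day 12, 12 genes were called without IND replicate 1. Of the calls, 6 of 7 at day 6, 17 of 23 at day 8, 0 of 17 at day 10, 7 of 25 at day 12 and 17 of 29 at day 14 were made in each of 11 alternatives as well.

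The summed level of the 41 genes was lower in each IND library than in each CTRL library of the same day. It reached 118 to 149.3 CPM at day 6, 182.6 to 214.7 at day 8, 252.5 to 355.1 at day 10, 402.7 to 562.7 at day 12 and 714.9 to 876.9 at day 14. In single genes, the 3 IND libraries all lay below the 3 CTRL libraries for 10 of 31 genes at day 6, 25 of 37 at day 8, 29 of 39 at day 10, 33 of 40 at day 12 and 35 of 40 at day 14, against 11.0%, 16.9%, 16.2%, 15.7% and 13.9% of all genes tested. They all lay above in 2, 2, 2, 1 and 1 genes, against 8.06%, 16.3%, 14.7%, 14.6% and 12.8%. Over the 5 days, INSM1, GAP43 and CNTN2 were called lower on each day, with the day 6 call of CNTN2 ending without CTRL replicate 1 (adjusted p = 0.127), CTRL replicate 3 or IND replicate 2 (edgeR). The day 10 calls ended in 6 of 11 alternatives for INSM1, 6 for GAP43 and 3 for CNTN2, and the day 12 calls in 3 for GAP43 and 2 for CNTN2, in each case with 1 library left out among them. Another 7 genes were called lower on 4 days, 10 on 3 days, 7 on 2 days and 8 on 1 day. The main edgeR test made no call at any day for 5 genes, NEUROD2, which passed the filter on low counts in no comparison, POU4F2, ONECUT1, MYT1L and NTRK2. Of these, DESeq2 called MYT1L lower at days 10 and 12, and NTRK2 lower at day 6 and higher at day 8. Some other settings of edgeR made calls for POU4F2, ONECUT1, MYT1L and NTRK2.

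**Figure D2:**
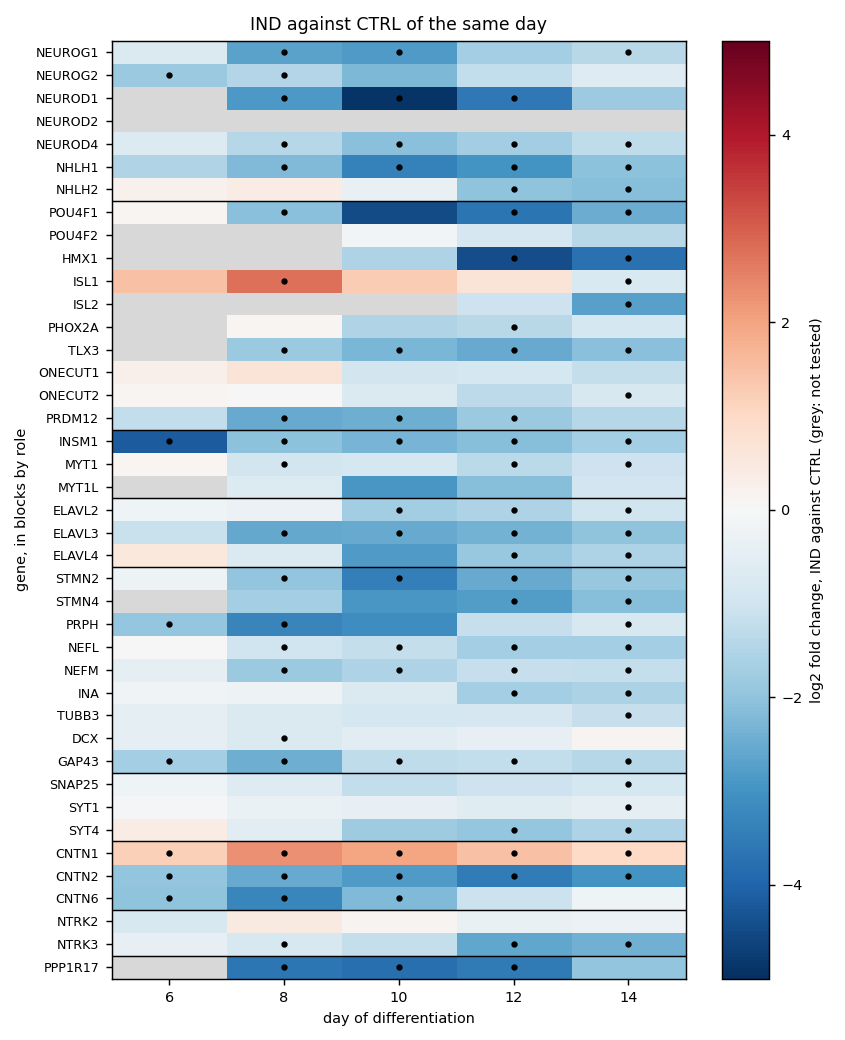
Log2 fold change of IND against CTRL cells for each of the 41 genes (rows, in blocks by role) at each day (columns). Blue is lower and red higher in IND cells, a dot marks an adjusted p under 0.05 in edgeR's quasi-likelihood test, and grey marks genes not tested. Most dots are on blue, with CNTN1 red at each of the 5 days and ISL1 red with a dot at day 8.

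Of the 7 bHLH factors, 1 of 5 tested was lower at day 6, 5 of 6 at day 8, and 4 of 6 at each of days 10, 12 and 14. NEUROG2, a proneural factor that commits progenitors to the neuronal fate, was the first. At day 6 it had 6.38, 4.18 and 6.8 CPM in the CTRL libraries and 1.5, 1.22 and 1.97 CPM in the IND libraries. The groups did not overlap, and the log2 fold change was -1.86 ± 0.26 (SE, n = 3 and 3, edgeR, adjusted p = 0.00043). In IND cells it was also below day 4 at this time (log2 fold change -1.62, edgeR, adjusted p = 0.0066). By day 14 the difference from CTRL cells was -0.66 and did not pass the test (edgeR, adjusted p = 0.0531).

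NHLH1 and NHLH2 encode paired bHLH factors of newly born neurons, and they were first called lower at different days. NHLH1 had 3.99, 2.53 and 3.61 CPM in the day 8 CTRL libraries and 0.77, 0.961 and 0.468 CPM in the day 8 IND libraries, without overlap (log2 fold change -2.20 ± 0.31, edgeR, adjusted p = 0.00087). NHLH2, whose promoter with 3 E-boxes is shown above, did not differ beyond the spread before day 12 (log2 fold change 0.22 at day 6, 0.38 at day 8 and -0.38 at day 10). At day 14 it had 12.2, 15.3 and 7.59 CPM in CTRL and 2.1, 2.65 and 3.1 CPM in IND cells, again without overlap (-2.15 ± 0.25, edgeR, adjusted p = 0.000242). The IND level at day 14 was near that of day 4, which was 2.08 ± 0.193 CPM.

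NEUROG1, the proneural factor of many sensory neurons, had 5.38 ± 1.5 CPM in CTRL and 0.812 ± 0.454 CPM in IND cells at day 8 (edgeR, adjusted p = 0.00204), and its call at day 14 ended in 5 of 11 alternatives. NEUROD1, a factor of maturing neurons, had 28.1 ± 11.7 CPM in CTRL and 7.96 ± 3.24 CPM in IND cells at day 14, a difference that did not pass the test (edgeR, adjusted p = 0.0706) after passing at days 8, 10 and 12. At those days its IND mean was 0.118, 0.226 and 1.11 CPM, and its calls ended in 2, 6 and 3 of 11 alternatives. NEUROD4, another factor of neuronal differentiation, was called lower from day 8 to day 14, with log2 fold changes of -1.41, -2.10, -1.74 and -1.29. These calls ended in 2, 6, 5 and 0 of 11 alternatives. NEUROD2 was at the floor in 4 groups, and its highest group mean was 0.0716 CPM.

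The 10 homeodomain and other specifying factors were called less evenly, with 0 of 5 tested lower at day 6, 3 of 7 at day 8, 2 of 9 at day 10, 5 of 10 at day 12 and 6 of 10 at day 14. At day 6 edgeR called 0 in either direction, 2 had an unadjusted p under 0.05 (ISL1 higher and PRDM12 lower) and DESeq2 called 1 higher. TLX3, a homeodomain factor of excitatory sensory relay neurons, had 9.27, 12.4 and 8.4 CPM in the day 14 CTRL libraries and 2.65, 1.87 and 2.56 CPM in the IND libraries. No IND value reached a CTRL value (log2 fold change -2.08 ± 0.21, edgeR, adjusted p = 5.4e-05). It was also called lower at days 8, 10 and 12. The day 8 call ended in 5 of 11 alternatives and the day 10 call in 6, while the day 12 call was made in each.

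PRDM12, a regulator needed for pain-sensing neurons, had 11.4, 5.68 and 11.5 CPM in the day 8 CTRL libraries and 1.49, 1.19 and 2.28 CPM in the IND libraries (log2 fold change -2.50 ± 0.33, edgeR, adjusted p = 0.00133). POU4F1, a POU factor of sensory neurons, had 3.73, 1.71 and 2.22 CPM in CTRL and 0.565, 0.658 and 0.549 CPM in IND cells of day 8 (-2.10 ± 0.34, edgeR, adjusted p = 0.00187). Neither gene's groups overlapped. By day 14 POU4F1 had reached 49.9 ± 17.6 CPM in CTRL and 8.83 ± 3.26 CPM in IND cells, a call (edgeR, adjusted p = 0.0188) that ended in 4 of 11 alternatives, among them without CTRL replicate 2 or IND replicate 1.

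HMX1, a homeodomain factor of cranial and sympathetic ganglia, appeared late. It had 0.179 ± 0.0307 CPM in CTRL cells at day 8 and 19.5, 31.1 and 13.2 CPM in the CTRL libraries at day 14, against 2.65, 0.949 and 1.3 CPM in the IND libraries, all of them below CTRL (edgeR, adjusted p = 0.00617). ISL2, a LIM homeodomain factor of motor and sensory neurons, had no count at day 4 and had 1.85 ± 0.768 CPM in CTRL and 0.279 ± 0.0113 CPM in IND cells at day 14 (edgeR, adjusted p = 0.001). PHOX2A, a factor of autonomic neurons, was called by the main edgeR test at day 12 alone (log2 fold change -1.39, edgeR, adjusted p = 0.0192). This call ended without CTRL replicate 2, CTRL replicate 3 or IND replicate 2. ONECUT2, a factor of the ONECUT family, was called by the main edgeR test at day 14 alone (-0.81, edgeR, adjusted p = 0.00544). This call ended in 1 fit over the 33 libraries (edgeR, adjusted p = 0.415). DESeq2 and some other settings of edgeR also called PHOX2A at day 14 and ONECUT2 at day 12, both lower. Without day 10 IND replicate 2, edgeR called both lower at day 10 as well. ONECUT1 and POU4F2, which the main edgeR test and DESeq2 called at no day, had at most 2.17 ± 0.586 and 1.13 ± 0.37 CPM as group means, in CTRL cells of day 14, against 0.968 ± 0.493 and 0.42 ± 0.209 CPM in IND cells. Some other settings of edgeR called both lower at day 14. Without the filter on low counts the adjusted p was 0.0105 for ONECUT1 and 0.0352 for POU4F2 (edgeR).

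ISL1, a LIM homeodomain factor used by motor and sensory neurons and also by heart and endocrine progenitors, went the other way first. At day 8 it had 1.46, 3.51 and 1.5 CPM in the CTRL libraries and 18.1, 13.3 and 11.9 CPM in the IND libraries. Each IND value was above each CTRL value (log2 fold change 2.75 ± 0.36, edgeR, adjusted p = 0.00219, and called in each of 11 alternatives). The IND mean rose to 21.8 ± 2.21 CPM at day 12 and was 13.5 ± 1.09 CPM at day 14. CTRL cells passed it at that day, with 23.5, 29.1 and 15.2 CPM against 14.6, 13.5 and 12.4 CPM in IND cells (-0.74 ± 0.20, edgeR, adjusted p = 0.0488), a call that ended in 6 of 11 alternatives, among them leaving out each library of the day but CTRL replicate 3. Markers of endocrine islet progenitors also moved at day 8. Of 12 such genes 7 were tested and 3 were higher in IND cells, their summed level lay between 20.33 and 56.41 CPM in IND and between 7.859 and 20.54 CPM in CTRL libraries, and INS was at 0 in both groups and PAX4 in the CTRL group. Their part in the ISL1 result was not tested.

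INSM1, a zinc finger factor that is switched on as neural and endocrine progenitors leave the cell cycle, was lower at each day. At day 6 the IND libraries held 1 to 3 counts of it and the CTRL libraries 22 to 49. The pooled CTRL level was 19.5 times the IND level, with an exact 95% interval of 8.66 to 54.3 for counting error, and no library overlapped (edgeR, adjusted p = 0.000701). At day 14 it had 25.1 ± 10.6 CPM in CTRL and 7.71 ± 0.797 CPM in IND cells (log2 fold change -1.70, edgeR, adjusted p = 0.0129), a call that ended when any one of the 3 IND libraries was left out.

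MYT1, a zinc finger factor that promotes neuronal differentiation, did not differ beyond the spread at day 6, with 3.97 ± 0.836 CPM in CTRL and 4.17 ± 0.467 CPM in IND cells. At day 14 it had 25, 29.8 and 19.4 CPM in the CTRL libraries and 14.6, 10.6 and 10.8 CPM in the IND libraries. These did not overlap (log2 fold change -1.04 ± 0.17, edgeR, adjusted p = 0.00273). Its relative MYT1L was weakly expressed, with at most 1.52 ± 0.208 CPM as a group mean, and was not called by the main edgeR test at any day. DESeq2 called it lower at day 10 (log2 fold change -2.94, adjusted p = 0.00109) and at day 12 (-2.18, adjusted p = 0.00362). So did some other settings of edgeR, among them 1 fit over the 33 libraries (edgeR, adjusted p = 0.00699 and 0.0442).

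The 3 neuronal ELAV-like RNA-binding proteins, which stabilise and process neuronal transcripts, were all called lower at days 12 and 14. The ELAVL2 calls of these 2 days each ended in 6 of 11 alternatives. At day 6 edgeR and DESeq2 called 0 of the 3, and ELAVL3 alone had an unadjusted p under 0.05. ELAVL3 came first, at day 8. At day 14 ELAVL3 had 39.7, 41.4 and 20.9 CPM in CTRL and 9.83, 7.54 and 7.67 CPM in IND libraries (log2 fold change -2.03 ± 0.27, edgeR, adjusted p = 0.00332). ELAVL4 had 31.5, 33.8 and 23.9 CPM in CTRL and 10.3, 7.84 and 12.6 CPM in IND libraries of that day (-1.53 ± 0.18, edgeR, adjusted p = 0.00041). Both genes' groups were apart. ELAVL2 had 12.9, 18.6 and 12.1 CPM in CTRL and 4.99, 3.76 and 4.31 CPM in IND libraries at day 10, also apart (-1.73 ± 0.23, edgeR, adjusted p = 0.0211), a call that was lost in 6 of 11 alternatives (adjusted p up to 0.133).

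Among the 9 genes of the cytoskeleton and of growth, 2 of 8 tested were lower at day 6, 6 of 9 at day 8, 4 of 9 at day 10, 6 of 9 at day 12 and 8 of 9 at day 14. GAP43 (chr3:115623324-115721490, GRCh38) differed at the first day examined. It had 51.4, 41.2 and 45 CPM in the day 6 CTRL libraries and 14.3, 15.3 and 12 CPM in the IND libraries, without overlap (log2 fold change -1.71 ± 0.13, edgeR, adjusted p = 1.03e-06). Day 4 had 13.8 ± 1.7 CPM, from which the IND cells of day 6 differed by 0.02 on the log2 scale (edgeR, adjusted p = 0.948). At day 8 GAP43 in IND cells was below day 4 (-1.37, edgeR, adjusted p = 0.000382).

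The neurofilament genes NEFM and NEFL, which lie side by side on chromosome 8 and build the axonal skeleton, were both lower from day 8. NEFM had 35, 31 and 30.3 CPM in the day 8 CTRL libraries and 8.47, 8.3 and 9.54 CPM in the IND libraries (log2 fold change -1.86 ± 0.11, edgeR, adjusted p = 2.09e-06). NEFL had 156, 172 and 126 CPM in CTRL and 50.6, 38.5 and 48.6 CPM in IND libraries of day 14 (-1.72 ± 0.13, edgeR, adjusted p = 2.46e-05). In both cases each IND library lay below each CTRL library. At day 6 their log2 fold changes were -0.47 and -0.02, neither called.

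STMN2 at day 14 had 237.7, 283 and 176.5 CPM in CTRL and 67.9, 44.4 and 73.7 CPM in IND libraries, which did not overlap (log2 fold change -1.90 ± 0.25, edgeR, adjusted p = 0.00646). In IND cells STMN2 remained below day 4 at days 6, 8 and 10 and was not called against day 4 at days 12 and 14. STMN4, its relative, had 35.8 ± 11.6 CPM in CTRL and 8.11 ± 1.42 CPM in IND cells of day 14 (-2.14 ± 0.24, edgeR, adjusted p = 0.00101). PRPH, the intermediate filament of peripheral neurons, was lower already at day 6 (6.62 ± 0.46 against 1.72 ± 0.159 CPM, -1.92, edgeR, adjusted p = 4.68e-05), and 56.2% of its exon bases are shared with AC125611.4 on the opposite strand. INA was lower at days 12 and 14 (log2 fold changes -1.68 and -1.59). TUBB3, the neuronal beta-tubulin, was low throughout, with at most 1.95 ± 0.186 CPM as a group mean, and its call at day 14 (edgeR, adjusted p = 0.0338) ended when any one of the 6 libraries was left out.

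DCX was the exception among these genes. It had 245, 238.6 and 126 CPM in the day 14 CTRL libraries and 243.9, 215.4 and 201.9 CPM in the IND libraries, so that the groups overlapped (log2 fold change 0.12, edgeR, adjusted p = 0.84). It was called lower at day 8 (-0.74 ± 0.13, edgeR, adjusted p = 0.00606), with 124, 85.9 and 91.2 CPM in CTRL and 55.4, 62.5 and 61.1 CPM in IND libraries.

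**Figure D3:**
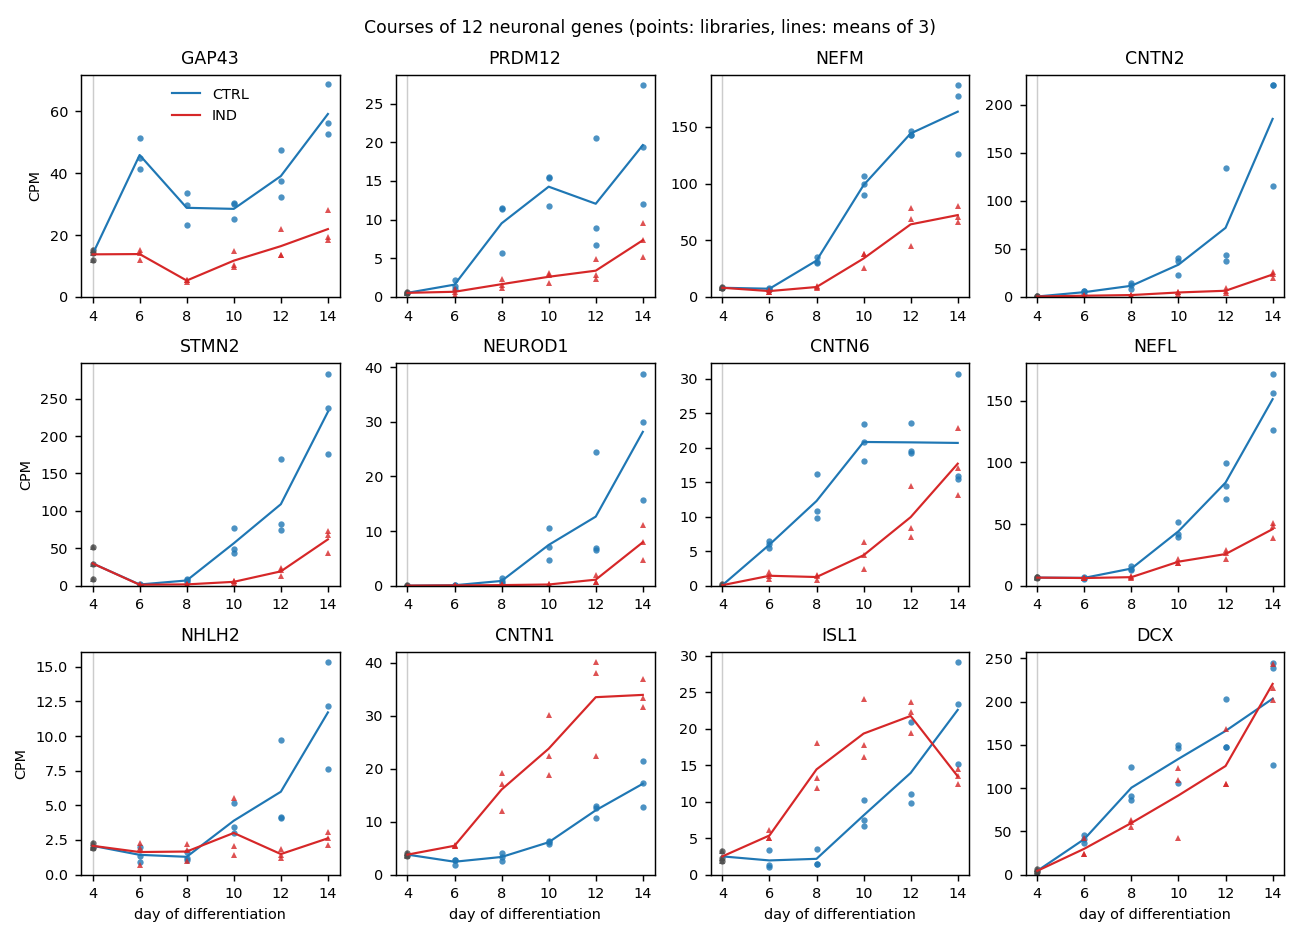
Level in CPM (linear axes from 0) of 12 of the neuronal genes from day 4 to day 14, with blue circles and lines for CTRL, red triangles and lines for IND, and grey points for the shared day 4 libraries. Points are libraries and lines join the means of 3. GAP43 separates at day 6, NHLH2 after day 10, CNTN6 differs less at day 14 than at day 8, CNTN1 is higher in IND cells, ISL1 crosses between days 12 and 14, and DCX overlaps at day 14.

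The 3 genes of synaptic vesicle release were called late. The edgeR test called 0 of them at days 6, 8 and 10, where 0, 2 and 2 had an unadjusted p under 0.05 and DESeq2 called 0, 0 and 2. At day 12 1 was lower and at day 14 all 3. SYT4, a synaptotagmin of dense-core vesicles, had 68.9, 86.9 and 50.5 CPM in the day 14 CTRL libraries and 25, 18.9 and 26.5 CPM in the IND libraries. The groups were apart (log2 fold change -1.55 ± 0.21, edgeR, adjusted p = 0.00425). SNAP25, a SNARE protein of the presynapse, and SYT1, the calcium sensor of release, were lower at this day, with log2 fold changes of -0.86 and -0.48 (edgeR, adjusted p = 0.0146 and 0.00918). Both calls ended without CTRL replicate 1 or IND replicate 2.

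The 3 contactins, immunoglobulin-type adhesion proteins of the axon surface, were all called at day 8, in opposite directions. CNTN6 had 10.8, 9.89 and 16.2 CPM in the day 8 CTRL libraries and 1.39, 0.885 and 1.53 CPM in the IND libraries (log2 fold change -3.26 ± 0.26, edgeR, adjusted p = 2.37e-05). CNTN2 had 14.8, 8.18 and 11.9 CPM in CTRL and 1.39, 2.18 and 2.38 CPM in IND libraries (-2.54 ± 0.26, edgeR, adjusted p = 0.00016). CNTN1 had 3.31, 2.53 and 4.12 CPM in CTRL and 19.1, 17 and 12 CPM in IND libraries (2.29 ± 0.22, edgeR, adjusted p = 0.000123). None of the 3 overlapped between the groups. CNTN1 was the only one of the 41 genes called higher in IND cells on each of the 5 days, with log2 fold changes of 1.19, 2.29, 1.97, 1.46 and 0.99. The day 10 call ended in 5 of 11 alternatives, among them leaving out any one CTRL library. CNTN1 was not called in CTRL cells against day 4 at days 6 and 8.

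CNTN2 later reached 185 ± 60.9 CPM in CTRL and 23.4 ± 3.59 CPM in IND cells at day 14 (log2 fold change -2.98 ± 0.30, edgeR, adjusted p = 0.00277). CNTN6 had 17.7 ± 4.92 CPM in IND cells of day 14, with libraries of 17.1, 13.1 and 22.9 CPM against 15.9, 15.5 and 30.7 CPM in CTRL cells. These overlapped (-0.21, edgeR, adjusted p = 0.777).

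Of the 2 neurotrophin receptors, NTRK3, the receptor of neurotrophin-3, had 19.6, 21 and 12.7 CPM in the day 14 CTRL libraries and 3.99, 3.16 and 2.92 CPM in the IND libraries, without overlap (log2 fold change -2.41 ± 0.21, edgeR, adjusted p = 1.7e-05). NTRK2 was not called by the main edgeR test at any day, with log2 fold changes from -0.81 at day 6 to 0.47 at day 8, both of which DESeq2 called (adjusted p = 0.000649 and 0.0395). Without the filter on low counts edgeR called both too (adjusted p = 9.68e-09 and 0.000448). At day 14 NTRK2 had 77.6 ± 14.1 CPM in CTRL and 62.4 ± 1.72 CPM in IND cells, called lower without that filter (edgeR, adjusted p = 0.0246). PPP1R17 had 2.95, 1.47 and 1.95 CPM in the day 8 CTRL libraries and 0.128, 0.101 and 0.264 CPM in the IND libraries (-3.61 ± 0.43, edgeR, adjusted p = 0.0003). Its day 14 levels were 75.3 ± 34.2 and 19 ± 8.12 CPM and did not pass the test (edgeR, adjusted p = 0.0834).

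Whether the difference between IND and CTRL cells changed from day to day was tested with the 4 interaction terms of day and induction over the 30 libraries after day 4. The test called 11 of the 40 genes tested, and 2.38% of all genes. These were NEFL, ISL1, CNTN6, NTRK3, NEFM, STMN2, SYT4, NHLH2, MYT1, INA and ELAVL4. ISL1 moved from 2.75 at day 8 to -0.74 at day 14 on the log2 scale and CNTN6 from -3.26 to -0.21, while NEFL moved from -0.02 at day 6 to -1.72 at day 14 and NTRK3 from -0.40 to -2.41. The count depended on the libraries used. Without the libraries of replicate 1 edgeR called 0 genes, and 18 of 40 had an unadjusted p under 0.05. Without those of replicate 3 it called 3, and without day 10 IND replicate 2 alone 14. DESeq2 called 17.

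Against day 4, neuronal genes also rose in IND cells, from day 8 on. At day 6, 5 of 27 were higher and 6 lower (edgeR, 26.5% of all genes called, 13.1% higher and 13.5% lower). At day 8 16 of 32 were higher and 6 lower (35.8%, 18.7% higher and 17.0% lower). At day 10 17 of 34 were higher and 1 lower (21.6%, 11.9% higher and 9.79% lower). At day 12 24 of 37 were higher (37.1%, with 20.5% higher) and at day 14 34 of 39 (50.6%, with 25.8% higher). Without IND replicate 2, 24 were higher and 2 lower at day 10. The median log2 fold change was 0.34, 1.46, 1.79, 2.61 and 3.17. These medians also cover different genes at each day, and genes at the floor at day 4 entered only through IND cells. The 6 lower genes at day 6 were NEUROG2, STMN2, PRPH, NEFM, INA and PPP1R17. At day 14 the 5 genes tested and not called were NEUROG2, NHLH2, POU4F2, ONECUT1 and STMN2. CTRL and IND cells were compared with the same day 4 libraries.

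Per length, in the deposited FPKM (fragments scaled to gene length and library), the order of the genes changed with time. STMN2 was highest at day 4, with 12.5 ± 8.88 FPKM, followed by GAP43 with 6.53 ± 0.798 FPKM, values that do not differ beyond their spread. GAP43 led in CTRL cells at day 6 with 21.6 ± 2.5 FPKM and had the highest mean at day 8 with 13.7 ± 2.52 FPKM, against 9.76 ± 2.01 FPKM for DCX, values whose spreads meet. At day 14 STMN2 led CTRL cells with 99.2 ± 22.4 FPKM, well above NEFM (37.6 ± 7.43), NEFL (35.2 ± 5.29), PPP1R17 (31.8 ± 14.3) and GAP43 (28.6 ± 3.94), neighbours that did not differ beyond their spread. In IND cells of day 14 STMN2 had 26.4 ± 6.59 FPKM and DCX 21.7 ± 2.21 FPKM, again within the spread, followed by NEFM with 16.6 ± 1.68 FPKM. DCX had the highest mean in IND cells at days 8 and 10, with 5.83 ± 0.336 FPKM against 5.00 ± 1.17 FPKM for ISL1 at day 8 and 8.94 ± 4.23 FPKM against 7.73 ± 1.56 FPKM for NEFM at day 10, both within the spread.

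Other neuronal genes, a list of 54, moved in the same direction in part. From day 6 to day 14, 6, 12, 7, 18 and 29 of them were lower in IND cells, of 49, 52, 53, 53 and 53 tested, and at most 3 were higher on a day. At day 14 their median log2 fold change was -0.77 and that of the 41 genes -1.40. L1CAM, an axonal adhesion molecule, had 93.5 ± 8.75 CPM in CTRL and 40.8 ± 1.49 CPM in IND cells of day 14 (log2 fold change -1.19, edgeR, adjusted p = 5.76e-06), and TUBB2A, a beta-tubulin of neurons, 117 ± 12.1 and 51.6 ± 3.98 CPM (-1.17, edgeR, adjusted p = 1e-05). SST, which encodes somatostatin and is expressed in neurons and in endocrine cells, was higher in IND cells of day 8, with 48.7 ± 7.17 against 7.74 ± 0.278 CPM (2.67, edgeR, adjusted p = 3.13e-07).

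Of 20 sensory and autonomic neuron genes, 2 of 15 tested were lower at day 6, 3 of 16 at day 8, 1 of 17 at day 10, 7 of 18 at day 12 and 8 of 17 at day 14, and at most 2 were higher on a day. DRGX, a homeodomain factor of sensory neurons, had 3.49 ± 0.283 CPM in CTRL and 0.373 ± 0.223 CPM in IND cells of day 14 (log2 fold change -3.27, edgeR, adjusted p = 0.000332). POU4F3, a relative of POU4F1, had 2.65 ± 0.827 and 0.415 ± 0.0411 CPM (-2.65, edgeR, adjusted p = 0.000279). A list of 11 genes held REST, a repressor that silences neuronal genes outside neurons, its partners, and splicing factors. At day 14, 2 of the 11 were lower, the splicing factors SRRM4 and SRRM3 (log2 fold change of SRRM3 -0.82). REST itself was not called by edgeR or DESeq2 at any day, with log2 fold changes from -0.14 to 0.25. SRRM4, a splicing factor that inactivates REST in neurons, had 16.8 ± 4.04 CPM in CTRL and 5.9 ± 0.693 CPM in IND cells of day 14 (-1.51, edgeR, adjusted p = 0.000241).

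Markers of other cell types were examined in the same way. Of 14 neural crest and glial genes, 4 of 14 tested were lower in IND cells at day 6, 5 of 14 at day 8, 0 of 14 at day 10, 6 of 14 at day 12 and 9 of 13 at day 14. At day 10, 3 of the 14 had an unadjusted p under 0.05 in edgeR and DESeq2 called 2, all lower. Their summed level was 846.4 to 1336 CPM in CTRL and 555.7 to 618.5 CPM in IND libraries of day 14, and none of the 14 was at 0 in either group. Of 23 neural progenitor genes, 5 of 21 tested were lower at day 6, 4 of 22 at day 8, 1 of 23 at day 10, 4 of 23 at day 12 and 5 of 23 at day 14. At most 3 were higher on a day, at day 8. Their median log2 fold change was -0.36, 0.01, -0.07, -0.07 and -0.58 from day 6 to day 14, and their summed level was 1238 to 1330 CPM in CTRL and 1208 to 1526 CPM in IND libraries at day 8. At day 14 it was 1379 to 2126 CPM in CTRL and 1277 to 1349 CPM in IND libraries. The part of these cell types in the results above was not tested.

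**Figure D4:**
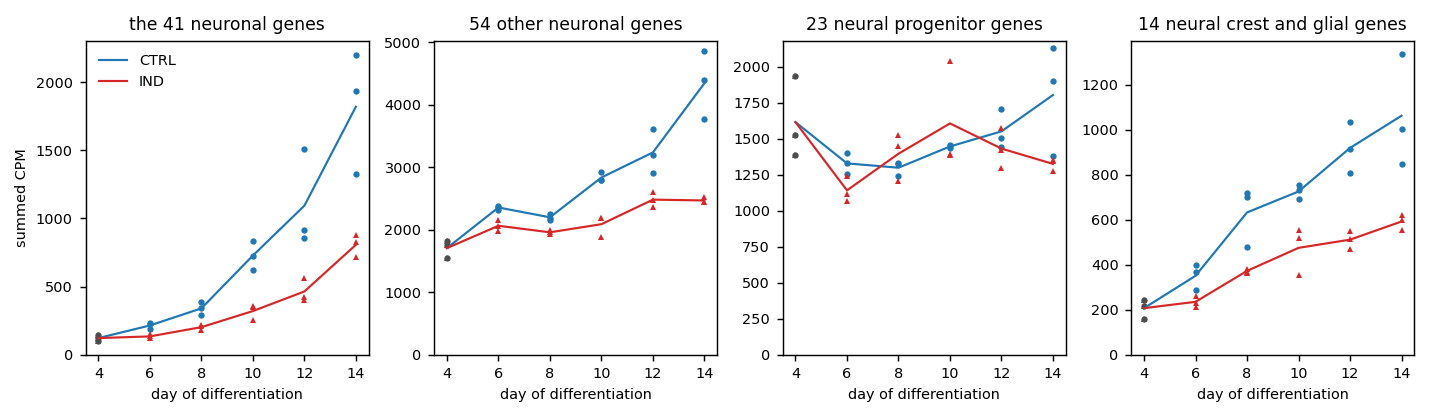
Summed CPM (linear axes from 0) of the 41 neuronal genes and of 3 other lists from day 4 to day 14, with blue circles for CTRL libraries, red triangles for IND libraries, grey points for day 4 and lines for the means of 3. The summed level of the 41 genes at day 14 was 1324 to 2202 CPM in CTRL and 714.9 to 876.9 CPM in IND libraries, and that of the neural crest and glial genes was also lower in IND libraries, while CTRL and IND libraries overlap for the neural progenitor genes at days 8, 10 and 12.

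The 8 gonadal and coelomic genes, towards which the protocol is directed, each had counts in the groups from day 6 onward. In IND cells 2 of 6 tested were lower at day 6, 4 of 7 at day 8, 3 of 7 at day 10, 3 of 8 at day 12 and 3 of 7 at day 14, with 1 higher on each day from day 8. Of those lower, GATA4, a factor of the coelomic epithelium, had 364 ± 59.6 CPM in CTRL and 143 ± 16.1 CPM in IND cells of day 8 (log2 fold change -1.34, edgeR, adjusted p = 0.000169). The gene higher at day 14 was OSR1, with 5.96 ± 0.96 CPM in CTRL and 17.5 ± 4.1 CPM in IND cells (1.56, edgeR, adjusted p = 0.000184). The summed level of the 8 genes lay between 759.8 and 849.3 CPM in CTRL and between 654.2 and 729.4 CPM in IND libraries at day 14. At that day the 41 neuronal genes together took 0.134% to 0.222% of all counts in CTRL and 0.0734% to 0.0900% in IND libraries.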

How the data were processed

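The authors mapped the reads with HISAT2 2.0.5 after trimming with fastp 0.23.2 (processing notes of the submitters, GRCh38), counted fragments on each gene with featureCounts 1.5.0-p3 and deposited raw counts. The authors also deposited FPKM, used here only to order genes within a group. The gene models equal GENCODE release 29 for 58690 of 58735 genes. From the deposited counts, each comparison of 6 libraries was fitted with edgeR 4.0.16 (R 4.3.3: filterByExpr, TMM, robust quasi-likelihood test, no covariate), and p-values were adjusted over all genes tested by the Benjamini-Hochberg method, at a threshold of 0.05. CPM use TMM factors over the 33 libraries. The study used DESeq2, which is an alternative here (version 1.42.0), beside RLE size factors, no filter, a replicate block, a minimum fold, 1 fit over the 33 libraries and each library left out.

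The members and lists were chosen with earlier results of these data known, so counts over them are descriptions and no p was computed for a list. Library values are given for genes called on at least 2 days, at most 3 a role in order of adjusted p, on the day of the smallest p. HMX1, ISL1, DCX and the later course of the contactins were added after their values were seen. The library values of STMN2 and the day 10 counts of PRPH also lie outside this rule. Of each other list up to 4 genes by adjusted p could be named. Scripts were tested on simulated data. Within groups the libraries differed beyond sampling noise (chi-squared of 7.82 to 245.8 a gene), so each counted as a sample. Coordinates of promoters are from RefSeq, and some fall at a start inside the GENCODE gene.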

Additional observations from a re-analysis of the deposited data

Results flagged for a closer look

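For 11 of the 41 genes, the difference between IND and CTRL cells changed between the days (4 interaction terms, edgeR's quasi-likelihood test, Benjamini-Hochberg over all genes). The adjusted p was 9.74e-05 for NEFL, 0.00119 for ISL1, 0.00119 for CNTN6, 0.0143 for NTRK3, 0.0157 for NEFM, 0.0203 for STMN2, 0.0247 for SYT4, 0.0272 for NHLH2, 0.0327 for MYT1, 0.0377 for INA and 0.0424 for ELAVL4. Each of the 11 lost its call in at least 1 of 8 alternatives. NEFL and CNTN6 kept theirs in 7 and ISL1, NEFM, SYT4 and ELAVL4 in 6. The highest adjusted p over these alternatives was 0.0569 for NEFL, 0.186 for ISL1 and 0.171 for CNTN6.

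The log2 fold changes of IND against CTRL cells behind these calls fell into different courses. ISL1 had 1.48, 2.75, 1.26, 0.64 and -0.74 from day 6 to day 14, and CNTN6 had -2.03, -3.26, -2.22, -1.07 and -0.21. STMN2 had -0.27, -1.97, -3.42, -2.50 and -1.90, with its lowest value at day 10. NEFL, NTRK3, NHLH2 and INA were lower at days 12 and 14 than at day 6.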

How the results depend on the processing

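No comparison of one gene reversed its direction: over 101 calls of a gene on a day (IND against CTRL) and 11 alternatives each, 915 of 1111 values kept their call and 196 lost it, and 47 calls were kept in all. With RLE size factors no count of calls moved by more than 1.5 times. The 7 calls of day 6 became 12 without the filter on low counts, and the 11 interaction calls became 30. DESeq2 gave 17 interaction calls. With 1 fit over all 33 libraries the 17 calls of day 10 became 29. Leaving out 1 library gave 6 to 11 calls at day 6 (median log2 fold change -0.61 to -0.27), 19 to 24 at day 8 (-1.22 to -0.94), 0 to 32 at day 10 (-1.89 to -1.51), 12 to 26 at day 12 (-1.82 to -1.27) and 23 to 34 at day 14 (-1.62 to -1.18), 7 to 13 for CTRL against day 4 at day 6, 7 to 11 for IND against day 4 at day 6 and 10 to 26 at day 10. For the interaction, leaving out the 10 libraries of 1 replicate number gave 0 to 8 calls and leaving out day 10 IND replicate 2 alone gave 14. The cause of these changes was not tested. Each fit without 1 library kept 2 in its group.

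The main fits did not use the replicate number. Same-numbered IND and CTRL libraries correlated between -0.107 and 0.0781 in their deviations from the group means, with 0 of 15 over 0.1. CTRL and day 4 libraries correlated between -0.109 and 0.138, with 2 of 15. As these correlations run over all genes that passed the filter, they cannot exclude a pairing that affects some genes. With the replicate block 11 genes were called at day 6, 2 at day 10, 32 at day 12 and, for IND against day 4 at day 10, 9. The block gave 10 interaction calls. Depth limits 6 of the 41 genes at day 4, NEUROD1, NEUROD4, POU4F1, ISL2, TLX3 and MYT1L, which were at the floor.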
